A study of Homo sapiens with 15 samples.

Results

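The genes described here are 10 targets of the transcription factor NF-kB: 5 secreted chemokines (CXCL1, CXCL2, CXCL3, CXCL8 and CCL20), 4 regulators of the pathway itself (NFKBIA, NFKB2, TNFAIP3 and BIRC3) and the adhesion molecule ICAM1. They were chosen by name from textbook NF-kB targets, with earlier results of these data known, and matched through their Ensembl identifiers. All 10 were found among the 60671 genes of the count table and all 10 passed the filter on low counts, as did 16160 genes in all. Their RNA was measured by poly(A)-selected RNA sequencing in HT115, an established human colorectal cancer cell line. Every culture was induced with 0.5 µg/ml doxycycline for 24 h, so that no group is uninduced. The control cells made GFP, and the others made a V5-tagged SOX9, either wild type (SOX9_WT) or 1 of 3 mutants named M228, M303 and M379, each in 3 libraries. SOX9 is a transcription factor of intestinal stem and Paneth cells, and the comparison asks what its mutants do to the transcriptome of these cells. The series text describes M303 as truncated, but the sources used here do not describe M228 or M379, or say whether a line is 1 clone. The labels give these 3 replicates a group, whereas the series text speaks of 6 experiments with 2 replicates each, and the labels were followed. No label ties the 3 libraries of a group to separate cultures. The spread that the p-values rest on is that between libraries and may be technical.

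NF-kB dimers are held in the cytoplasm by inhibitors of the IkB family. Signals from receptors for tumour necrosis factor, interleukin 1 and bacterial products activate a kinase complex that marks the inhibitor for destruction, and the freed dimer enters the nucleus and binds short kappaB sequences near its targets. Among the first genes it turns on are neutrophil-attracting chemokines and the pathway's own brakes, so that a pulse of activity limits itself. In the intestinal epithelium these chemokines recruit neutrophils and lymphocytes, and many colorectal cancers make them without outside stimulation.

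The samples were checked before the members were compared. Total counts ranged from 3054755 reads in GFP replicate 1 to 31704249 reads in M303 replicate 1, so that 1 read was worth 0.304 CPM (counts of a gene relative to the library total, with TMM scaling) in the first and 0.0299 CPM in the second. SOX9 RNA averaged 119 ± 33.9 CPM in GFP and 213 ± 28.6 in SOX9_WT, against 2105 ± 250 (M228), 3009 ± 51.6 (M303) and 2215 ± 158 (M379) in the mutants (SD, n = 3 each). The SOX9_WT libraries therefore lay above the GFP libraries by 0.84 ± 0.18 on the log2 scale, which edgeR did not call (adjusted p = 0.11), while each mutant lay over 3 log2 units above SOX9_WT (M303 3.82 ± 0.20). Every comparison of a mutant with SOX9_WT below thus also compares different amounts of SOX9 RNA, and the 2 cannot be told apart. The GFP libraries varied most among themselves, with a median dispersion of 0.0976 against 0.0104 to 0.0233 in the other groups, and GFP replicate 2 differed most from its group mates. All 9 epithelial markers were expressed in HT115, while 8 of 9 leukocyte markers, PTPRC and CD3E among them, summed to at most 1.22 CPM in any library. The ninth, lysozyme (LYZ), is also a Paneth cell product and was at 2567 to 3543 CPM in SOX9_WT, 1404 to 2429 CPM in GFP and 636 to 1554 CPM in the mutants. Its part in the results below was not tested. In bulk RNA, fewer cells that make a transcript and less transcript in each cell cannot be told apart.

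The promoters of the members show what they have in common in sequence. RefSeq gives the 250 bases upstream of each annotated start (12 starts for the 10 genes, since NFKB2 has 3). They were searched on both strands for the kappaB consensus and for its palindromic core GGAANTTCC, which overlaps it. All 10 genes held at least 1 of the 2 in at least 1 start, against 10.4% of 35116 human promoters of the same length, which describes how the genes were picked, as NF-kB targets, and is no finding. The consensus alone was found for 8 genes (9.96% of all promoters) and the core for 6 (0.826%). The following stretches are shown because they hold such matches, which are in capitals. They read 5′ to 3′ on the gene's own strand, build GRCh38.p14, and differ in length, with only 30 bases given for CXCL3 and NFKB2. The stretches of CXCL3, CCL20 and NFKB2 lie within the spans of these genes in the deposited annotation.
CXCL1 (chr4:73869273-73869392, plus strand): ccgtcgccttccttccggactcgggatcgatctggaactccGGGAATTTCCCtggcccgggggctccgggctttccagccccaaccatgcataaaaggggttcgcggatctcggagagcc
CXCL2 (chr4:74099197-74099315, minus strand): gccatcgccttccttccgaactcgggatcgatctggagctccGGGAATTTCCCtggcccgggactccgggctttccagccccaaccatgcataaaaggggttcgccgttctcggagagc
CXCL3 (chr4:74038749-74038778, minus strand): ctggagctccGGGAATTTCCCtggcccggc
CXCL8 (chr4:73740449-73740540, plus strand): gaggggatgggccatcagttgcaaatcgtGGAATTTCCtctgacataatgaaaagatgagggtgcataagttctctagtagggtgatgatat
CCL20 (chr2:227813722-227813821, plus strand): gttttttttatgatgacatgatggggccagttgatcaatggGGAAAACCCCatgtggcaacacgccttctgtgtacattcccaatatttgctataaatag
NFKBIA (chr14:35404750-35404869, minus strand): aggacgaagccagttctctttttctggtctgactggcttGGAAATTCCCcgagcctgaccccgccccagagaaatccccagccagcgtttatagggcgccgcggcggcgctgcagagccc
NFKB2, second start (chr10:102394461-102394490, plus strand): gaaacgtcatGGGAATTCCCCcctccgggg
TNFAIP3 (chr6:137867159-137867213, plus strand): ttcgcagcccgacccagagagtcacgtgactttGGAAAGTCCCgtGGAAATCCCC
BIRC3 (chr11:102317264-102317373, plus strand): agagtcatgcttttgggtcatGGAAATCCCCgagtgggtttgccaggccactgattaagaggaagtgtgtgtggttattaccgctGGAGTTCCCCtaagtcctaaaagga
ICAM1 (chr19:10270910-10270969, plus strand): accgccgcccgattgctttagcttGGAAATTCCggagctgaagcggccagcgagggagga

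CXCL1, CXCL2 and CXCL3 carry the same 10 bases, GGGAATTTCC, at nearly the same place. The match starts 79 bases before the start of CXCL1 and CXCL3 and 78 bases before that of CXCL2. Over the 120 bases before the start, CXCL1 and CXCL2 were identical in 93.4% of alignment columns, CXCL1 and CXCL3 in 90.8%, and CXCL2 and CXCL3 in 88.5%, while CXCL1 and CXCL8 were identical in 46.1%. CXCL8 holds only the core, 91 bases before its start, and so does ICAM1, 186 bases before its start. On the minus strand NFKBIA carries the same 10 bases as CXCL1. TNFAIP3 and BIRC3 hold 2 matches each. The sequence AACAAT, a common core of SOX binding motifs, was found in none of the 12 member windows and in 8.98% of all promoters, which says only that these letters are not in these windows.

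Levels were compared between genes as CPM per kilobase of exon, and the plot of level per exon length gives each group's range. NFKBIA, which encodes IkB-alpha, was the most abundant by its median over the 15 libraries (37.3 CPM per kb), followed by CXCL1 (27.9), CXCL3 (19.9), NFKB2 (17.3) and CXCL2 (13.5). TNFAIP3 (8.03), CXCL8 (7.11), BIRC3 (5.97) and CCL20 (5.64) were lower, and ICAM1 was lowest at 1.23 CPM per kb. Between the lowest and the highest library, CCL20 spanned 4.79-fold and CXCL8 4.06-fold, and NFKBIA only 1.64-fold. The order was not the same in all groups. In SOX9_WT, CXCL1 (45.4 CPM per kb) lay above NFKBIA (38.4) with no overlap of the libraries, whereas in M228, M303 and M379 NFKBIA lay above CXCL1 with no overlap, and in GFP the 2 overlapped. The ratio of CXCL1 to NFKBIA per kilobase was 1.03 to 1.41 in the SOX9_WT libraries, 0.847 to 1.07 in GFP and 0.525 to 0.708 in the 9 mutant libraries. Neighbours in the order were separated down to CXCL8 and TNFAIP3 in SOX9_WT. In GFP every pair of neighbours overlapped but the last, and ICAM1 lay below the gene before it, without overlap, in every group.

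**Figure D1:**
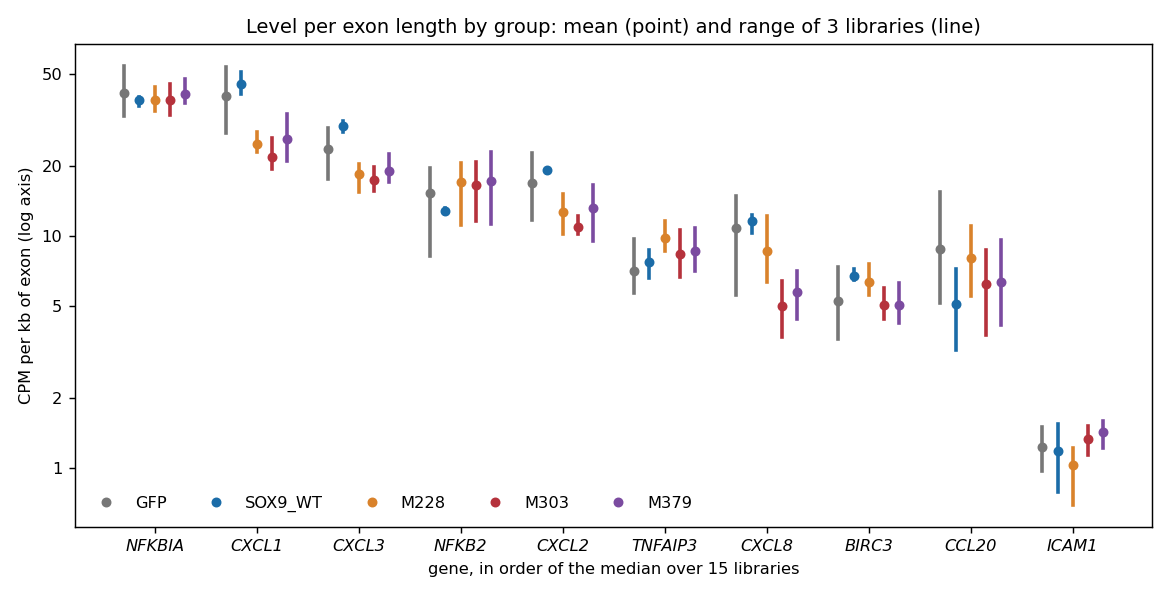
CPM per kilobase of exon (log axis) of the 10 genes, in order of their median over 15 libraries, with a point for the mean and a line for the range of the 3 libraries of each group. CXCL1 lies above NFKBIA in SOX9_WT and below it in the 3 mutants, and ICAM1 is lowest in every group.

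CXCL1, a neutrophil attractant that signals through CXCR2, stood at 55.7, 69.6 and 60.2 CPM in SOX9_WT (replicates 1, 2 and 3). It was at 31.8, 38.4 and 31.2 CPM in M228. In M303 it was at 27.1, 36.2 and 26.6 CPM. All of these mutant libraries lay below the lowest SOX9_WT library, and so did M379 with 32.7, 45.6 and 28.5 CPM. The GFP libraries were spread over 38.0, 72.6 and 54.0 CPM and overlapped those of SOX9_WT. Group means were 61.8 ± 7.05 CPM in SOX9_WT, 54.9 ± 17.3 in GFP, 33.8 ± 3.98 in M228, 30.0 ± 5.39 in M303 and 35.6 ± 8.89 in M379 (SD, n = 3 each).

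CXCL2, a close paralog with the same receptor, was at 27.3, 26.3 and 27.2 CPM in SOX9_WT. It was at 17.6, 21.3 and 14.2 CPM in M228, at 14.2, 17.1 and 14.7 in M303, and at 18.9, 23.2 and 13.3 in M379. Again all 9 mutant libraries lay below all 3 SOX9_WT libraries, while the GFP libraries (16.4, 31.8 and 22.5 CPM) reached from the mutant range to above SOX9_WT. CXCL3, the third of these paralogs, was at 66.0, 69.3 and 62.3 CPM in SOX9_WT. It was at 43.4, 45.5 and 34.4 CPM in M228, at 37.6, 44.2 and 34.6 in M303, and at 38.5, 50.3 and 38.1 in M379. The 9 mutant libraries were again below the 3 SOX9_WT libraries, and GFP (39.2, 64.7 and 54.4 CPM) overlapped both. Such a separation from SOX9_WT was found for these 3 of the 10 members, and for 2.93% of all genes tested. Reads matching several places were not counted, per the file headers' command. Exact stretches of 50 bases recur in transcripts of other genes, these paralogs among them: 4.81% of those in CXCL1 transcripts, 12.5% in CXCL2 and 6.01% in CXCL3. At 150 bases only CXCL2 (1.83%) and CXCL3 (1.15%) share any, with each other. Reads from such stretches may therefore be missing from the counts of these 3 genes.

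CXCL8, or interleukin 8, which attracts neutrophils through CXCR1 and CXCR2, was at 23.0, 27.6 and 27.3 CPM in SOX9_WT. It was at 8.21, 14.4 and 10.96 CPM in M303 and at 9.87, 15.9 and 12.8 CPM in M379. Both mutants lay wholly below SOX9_WT. M228, at 14.2, 27.3 and 16.2 CPM, did not, because its replicate 2 lay within the SOX9_WT range. GFP ranged over 12.5, 33.3 and 26.7 CPM. In sum over the 4 CXC genes, the SOX9_WT libraries held 172 to 193 CPM, the GFP libraries 106 to 202 CPM, and the mutant libraries 86.8 to 135 CPM.

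**Figure D2:**
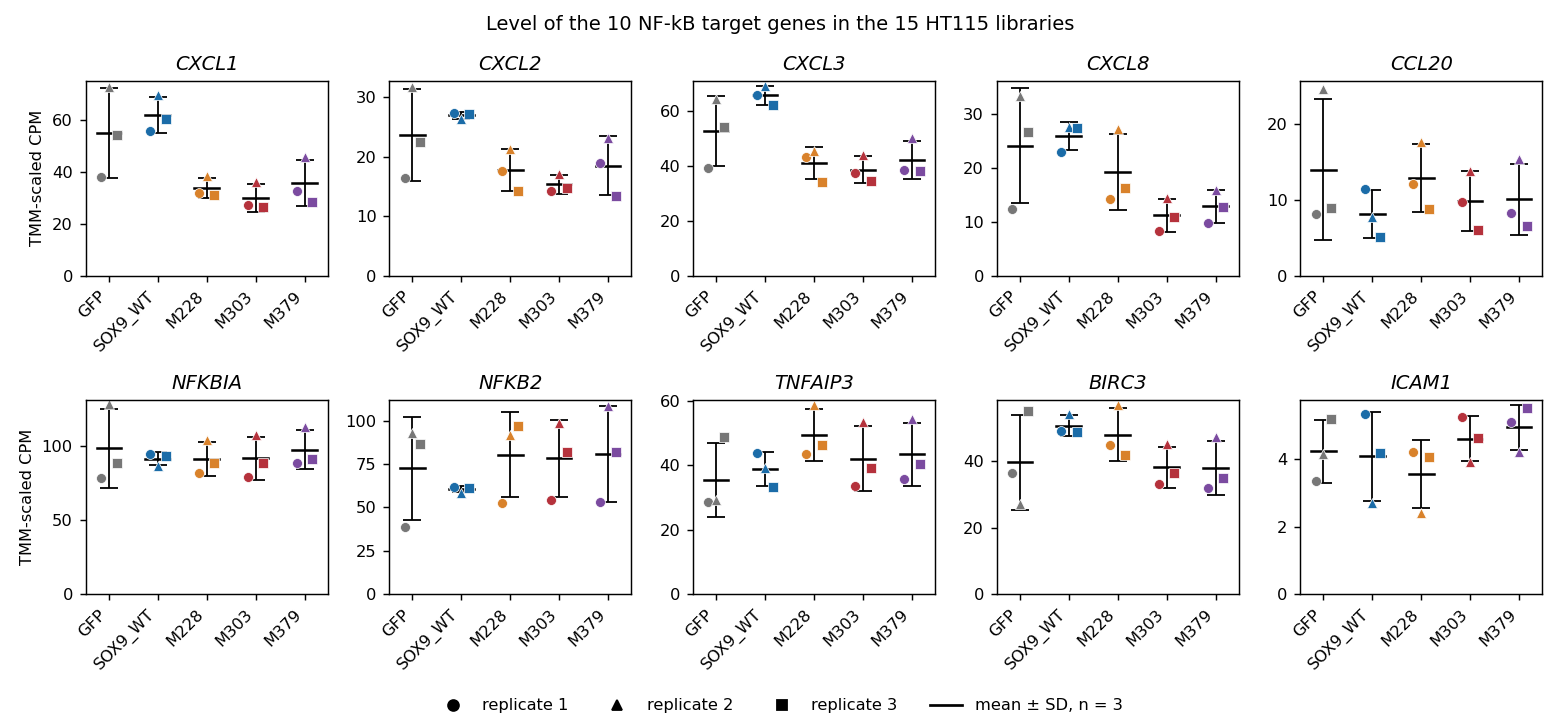
TMM-scaled CPM of the 10 genes in each of the 15 libraries, by group, with the marker showing the replicate number and the black lines the mean ± SD of 3 libraries. For CXCL1, CXCL2 and CXCL3 all 9 mutant libraries lie below the 3 SOX9_WT libraries, while NFKBIA overlaps between all groups.

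Tested with edgeR over all 15 libraries, none of these differences passed the threshold of an adjusted p under 0.05. Against SOX9_WT, M303 had CXCL1 at -1.04 ± 0.22 on the log2 scale (adjusted p = 0.0522), CXCL3 at -0.76 ± 0.18 (0.0815), CXCL8 at -1.22 ± 0.31 (0.126) and CXCL2 at -0.81 ± 0.22 (0.182). That makes 0 of 10 members called by edgeR, which called 0.384% of all genes tested in that comparison. At an unadjusted p under 0.05 there were 4 members and 6.31% of all genes, and DESeq2 called 4 members and 1.05% of all genes. In M228 minus SOX9_WT, CXCL1 was at -0.87 ± 0.22 (adjusted p = 0.109), CXCL3 at -0.68 ± 0.18 (0.126), CXCL2 at -0.62 ± 0.23 (0.418) and CXCL8 at -0.45 ± 0.31. Here edgeR called 0 of 10 members and 0.569% of all genes. An unadjusted p under 0.05 was found for 3 members and 6.65% of all genes, and DESeq2 called 2 members and 1.4% of all genes. In M379 minus SOX9_WT, CXCL8 was at -1.01 ± 0.31 (adjusted p = 0.506), CXCL1 at -0.80 ± 0.22 and CXCL3 at -0.64 ± 0.18 (0.371 each), and CXCL2 at -0.54 ± 0.22. Again edgeR and DESeq2 called 0 of 10, beside 0.124% and 0.439% of all genes, and 4 members had an unadjusted p under 0.05, as did 4.7% of all genes.

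For M303 and SOX9_WT the replicate numbers met the criterion for pairing, at its limit, and the fit with replicate number as a block called all 4 CXC chemokines lower. They were CXCL1 (-1.05 ± 0.13, edgeR adjusted p = 0.00112), CXCL8 (-1.26 ± 0.17, 0.00163), CXCL3 (-0.77 ± 0.13, 0.00732) and CXCL2 (-0.83 ± 0.17, 0.025). That is 4 of 10 members, where the block called 1.6% of all genes, and 0.879% lower. The fitted differences changed little from the unblocked ones, and their standard errors were smaller. M303 was below the same-numbered SOX9_WT library in 3 of 3 pairs for each of the 4 genes. The log2 ratios were -1.04, -0.94 and -1.18 for CXCL1 and -1.49, -0.94 and -1.32 for CXCL8. As all M303 libraries lay below all SOX9_WT libraries for these genes, any pairing would give 3 of 3. The count of pairs therefore adds no support to the block. A fit without the GFP libraries, added after the data were seen, also called 4 members in M303 minus SOX9_WT, 2 in M228 minus SOX9_WT and 2 in M379 minus SOX9_WT. It also called more of all genes than the fit of all libraries did, 1.44%, 1.78% and 0.628% in the same order.

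Against GFP the same 4 chemokines had negative differences in each mutant, and the GFP libraries overlapped those of the mutants for each of them but CXCL1 in M303, a separation that 3.87% of all genes showed. On the log2 scale CXCL1 was at -0.72 ± 0.22 in M228 (edgeR adjusted p = 0.271), at -0.89 ± 0.22 in M303 (0.202) and at -0.64 ± 0.22 in M379 (0.588). CXCL8 was at -0.40 ± 0.31, -1.16 ± 0.31 (adjusted p = 0.26) and -0.96 ± 0.31 (adjusted p = 0.567). No member was called by edgeR in any of the 3 comparisons, beside 2, 4 and 2 at an unadjusted p under 0.05 (9.38%, 7.8% and 6.77% of all genes) and 0, 1 and 0 called by DESeq2 (1.01%, 0.551% and 0.309%). edgeR called 0.241% (M228), 0.118% (M303) and 0.0371% (M379) of all genes. With the replicate block, for which the numbers met the pairing criterion, CXCL1 was called lower in M228 (adjusted p = 0.0244), and CXCL1 and CXCL8 in M303 (both 0.0103). The block called 1.12% and 0.526% of all genes there, and 0.34% and 0.149% lower. In M379 the block called none of the 10 and 0.105% of all genes, with CXCL8 at an adjusted p of 0.0585. SOX9_WT minus GFP gave no call either, by edgeR or DESeq2 and with 0 members at an unadjusted p under 0.05. Of all genes, edgeR called 0.0309% there and DESeq2 0.415%, and 10.7% had an unadjusted p under 0.05. The largest differences there were CCL20 (-0.81 ± 0.45) and BIRC3 (0.34 ± 0.23). These comparisons share their control libraries and are not independent of each other.

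**Figure D3:**
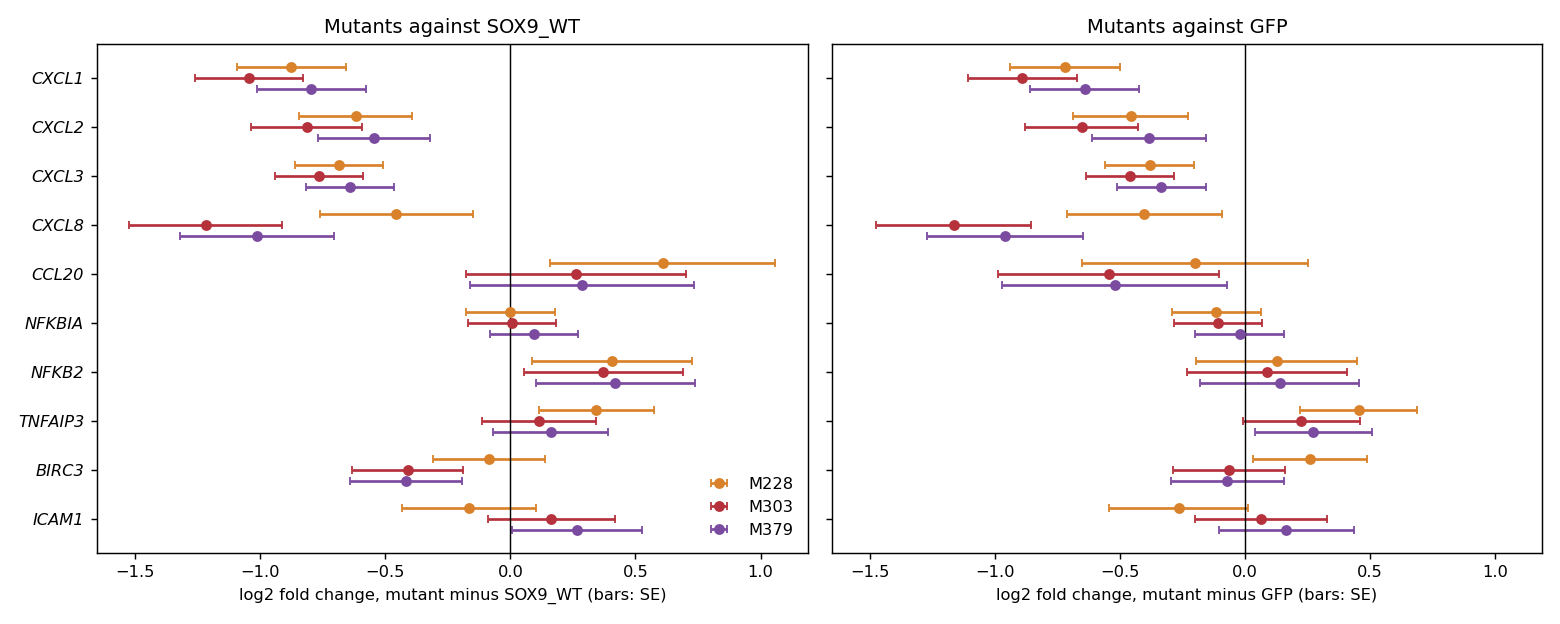
Log2 fold changes (points) with standard errors (bars) of the 10 genes in M228, M303 and M379, against SOX9_WT on the left and against GFP on the right, from 1 edgeR model of all libraries. CXCL1, CXCL2, CXCL3 and CXCL8 lie to the left of 0 in all 6 comparisons, CXCL8 in M303 farthest at -1.22 against SOX9_WT, and NFKBIA lies between -0.12 and 0.09.

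CCL20, which attracts CCR6-bearing lymphocytes and dendritic cells, differed from the CXC chemokines in the sign of its differences from SOX9_WT, none of which was called. It was at 11.5, 7.74 and 5.16 CPM in SOX9_WT, at 12.1, 17.7 and 8.76 in M228, at 9.79, 13.9 and 5.98 in M303, at 8.25, 15.4 and 6.60 in M379, and at 8.21, 24.7 and 8.99 in GFP. All 5 groups overlapped, and replicate 2 was the highest library in every group but SOX9_WT. M228, M303 and M379 differed from SOX9_WT by 0.61 ± 0.45, 0.26 ± 0.44 and 0.29 ± 0.45 log2 units, and each edgeR adjusted p was at least 0.979. Against GFP its differences were negative, as for the CXC genes, at -0.20 ± 0.45, -0.55 ± 0.44 and -0.52 ± 0.45, and were not called either. Of the chemokine receptors, CXCR1 and CXCR2 had at most 2 reads in any library and CCR6 had none, and 3 reads, the limit that a count of 0 allows, are worth 0.0896 CPM in M303 replicate 1 and 0.912 CPM in GFP replicate 1, for counting error only.

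Of the regulators, all but BIRC3 overlapped between all groups. NFKBIA, the inhibitor whose resynthesis ends an NF-kB response, was at 94.0, 86.0 and 93.0 CPM in SOX9_WT. It was at 79.0, 107 and 88.2 CPM in M303, at 81.6, 104 and 87.9 in M228, at 88.3, 112 and 90.8 in M379, and at 78.2, 128 and 88.1 in GFP. All groups overlapped. Its differences from SOX9_WT were 0.00 ± 0.18 in M228, 0.01 ± 0.18 in M303 and 0.09 ± 0.18 in M379. TNFAIP3, which encodes the ubiquitin-editing inhibitor A20, was at 43.8, 39.2 and 33.2 CPM in SOX9_WT, 43.4, 58.6 and 46.2 in M228, 33.6, 53.3 and 39.3 in M303, 35.6, 54.4 and 40.4 in M379, and 28.6, 29.05 and 48.8 in GFP. Its largest difference was M228 minus GFP, 0.45 ± 0.23 (edgeR adjusted p = 0.575), and all groups overlapped.

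NFKB2 encodes p100, the precursor of the p52 subunit and itself an inhibitor. In SOX9_WT its libraries were close together at 62.1, 58.5 and 61.2 CPM. In every other group replicate 1 lay far below the other two: 38.6 against 92.8 and 86.4 CPM in GFP, 52.5 against 91.9 and 97.1 in M228, 54.6 against 98.5 and 82.1 in M303, and 53.1 against 108 and 81.7 in M379. The mutant means were above SOX9_WT by 0.37 to 0.42 log2 units, with standard errors of 0.32, and the groups overlapped.

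BIRC3 encodes cIAP2, an ubiquitin ligase of the receptor complexes that blocks cell death. It was the regulator closest to the CXC pattern, at 48.9, 54.3 and 48.7 CPM in SOX9_WT, 33.1, 45.1 and 36.3 in M303 and 31.9, 47.2 and 34.8 in M379. Both mutants lay below all SOX9_WT libraries, with log2 differences of -0.41 ± 0.22 and -0.42 ± 0.22 (edgeR adjusted p = 0.891 and 0.979). M228, at 44.9, 56.9 and 41.9 CPM, overlapped SOX9_WT, and GFP ran from 27.2 to 55.2 CPM. With BIRC3 and the 4 CXC genes, 5 of 10 members had all 3 libraries below SOX9_WT in M303 and 5 of 10 in M379, where 9% and 9.48% of all genes did. In M228 it was 3 of 10, against 8.61%. No member had all 3 libraries of a mutant above SOX9_WT, as 7.12% (M228), 9.51% (M303) and 9.75% (M379) of all genes did. ICAM1, the endothelial and epithelial ligand of leukocyte integrins, was the scarcest, with 2.40 to 5.53 CPM and 11 to 176 reads in a library. Its differences from SOX9_WT, -0.16 ± 0.27 in M228, 0.16 ± 0.25 in M303 and 0.27 ± 0.26 in M379, were within the spread of the libraries. A gene on the other strand overlaps 25.4% of the exon bases of ICAM1, and since the counting was not stranded, part of the reads may belong to that gene. The same share was 1.89% for TNFAIP3, 1.68% for BIRC3 and 0 for the other members.

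Set side by side, the 2 classes of members had different medians. For M303 minus SOX9_WT the median log2 difference was -0.81 over the 5 chemokines and 0.11 over the regulators and ICAM1, beside 0.01 over all genes tested. For M228 the medians were -0.62 and 0.00, and for M379 -0.64 and 0.16. Against GFP they were -0.40 and 0.13 in M228, -0.65 and 0.06 in M303, and -0.52 and 0.14 in M379. The last of the regulator medians turned to -0.13 without GFP replicate 1 and to -0.12 without M379 replicate 2, and that of M228 turned to -0.16 without GFP replicate 1.

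Between the mutants no member was called. CXCL8 had the largest difference, -0.76 ± 0.31 on the log2 scale in M303 minus M228 (edgeR adjusted p = 1, 0.178 with the replicate block), and the libraries overlapped. It was the 1 member at an unadjusted p under 0.05 for M303 minus M228, and there was none for M379 minus M228 or M379 minus M303. Of all genes, 2.66%, 3.47% and 0.848% had such a p in these 3 comparisons. edgeR called 0.0124%, 0.0433% and 0% of all genes. DESeq2 called no member and 0.0681%, 0.118% and 0% of all genes. The block called 0 members in the 3 as well, and 0.0866%, 0.155% and 0% of all genes. M303 and M379 were the most alike, with differences of -0.01 to 0.27 over the 10 members and standard errors of 0.18 to 0.44.

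Several members differed with the replicate number across groups. Replicate 2 was the highest library of its group in all 5 groups for CXCL1, CXCL3 and CXCL8, that is 3 of 10 members, against 1.77% of all genes. It was highest in 4 of 5 groups for CXCL2, CCL20, NFKBIA and BIRC3, and in none for ICAM1, which it had lowest in 4. Replicate 1 was lowest in all 5 groups for CXCL8 alone (8.95% of all genes) and in 4 of 5 for NFKBIA, NFKB2 and TNFAIP3. In a model with group and replicate number, edgeR called 2 members lower in replicate 1 than in replicates 2 and 3, CXCL8 by -0.59 ± 0.12 (adjusted p = 0.00493) and NFKB2 by -0.68 ± 0.14 (0.00506). As 17.7% of all genes were called in that comparison, and 8.36% were called lower, 2 of 10 is near the background. The count was 6 without GFP replicate 2, where 34.5% of all genes were called, 4 without SOX9_WT replicate 2 (18.8%) and 4 without the GFP group (32.2%). CXCL1 was at -0.26 ± 0.09 (adjusted p = 0.058), and CXCL2 (-0.11), CXCL3 (-0.12) and CCL20 (0.04) were closer to 0.

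Replicates 2 and 3 were closer together. Between them edgeR called 0.0619% of all genes and 0 members. DESeq2 called 2 members and 0.749% of all genes, and 7 members had an unadjusted p under 0.05, against 13.9% of all genes. Of these 7, CXCL1, CXCL2, CXCL3, CXCL8, CCL20 and NFKBIA were higher in replicate 2 and ICAM1 was lower. CCL20 differed most, by 1.13 ± 0.20 log2 units (adjusted p = 0.0756), and the other 4 chemokines were higher by 0.31 to 0.41. What the replicate numbers stand for is not given in the labels. Removing GFP replicate 2, the library that stood apart, gave 2 calls, beside 0.667% of all genes. Removing GFP replicate 1, SOX9_WT replicate 1 or SOX9_WT replicate 2 gave 1 each, beside 0.0788%, 0.0121% and 0.024%. Replicate 1 holds both the smallest and the largest library, and the part of total count in these differences was not tested.

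The members' co-variation over the 15 libraries separated the CXC chemokines from the rest. The 6 pairs among CXCL1, CXCL2, CXCL3 and CXCL8 had Pearson correlations of log2 CPM from 0.83 to 0.96 (median 0.90). Pairs between a chemokine and a regulator or ICAM1 had a median of 0.14, and pairs among the regulators and ICAM1 of 0.08. These points share libraries, groups and replicate numbers, and the values are a description. When the group means were removed, the picture changed. CXCL1 and NFKBIA then correlated at 0.85 instead of 0.45, CXCL8 and NFKB2 at 0.88 instead of 0.31, and CXCL1 and CCL20 at 0.77 instead of 0.26. Within GFP and the mutants, replicate 2 was the highest library for both CXCL1 and NFKBIA, but within SOX9_WT replicate 2 was the highest for CXCL1 and the lowest for NFKBIA. Without the GFP libraries the within-group values were 0.75 for CXCL1 with NFKBIA, 0.79 for CXCL8 with NFKB2 and 0.88 for CXCL8 with NFKBIA. NFKBIA with BIRC3 changed most, from 0.03 with the GFP libraries to 0.87 without them. With GFP, the within-group medians were 0.86 for the 6 CXC pairs, 0.40 between the classes and 0.19 among the regulators and ICAM1. Without GFP they were 0.76, 0.67 and 0.72, so that the CXC pairs hardly stood apart. ICAM1 was negatively correlated with 9 of 9 members, both before and after removing group means (-0.43 to -0.01 before).

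**Figure D4:**
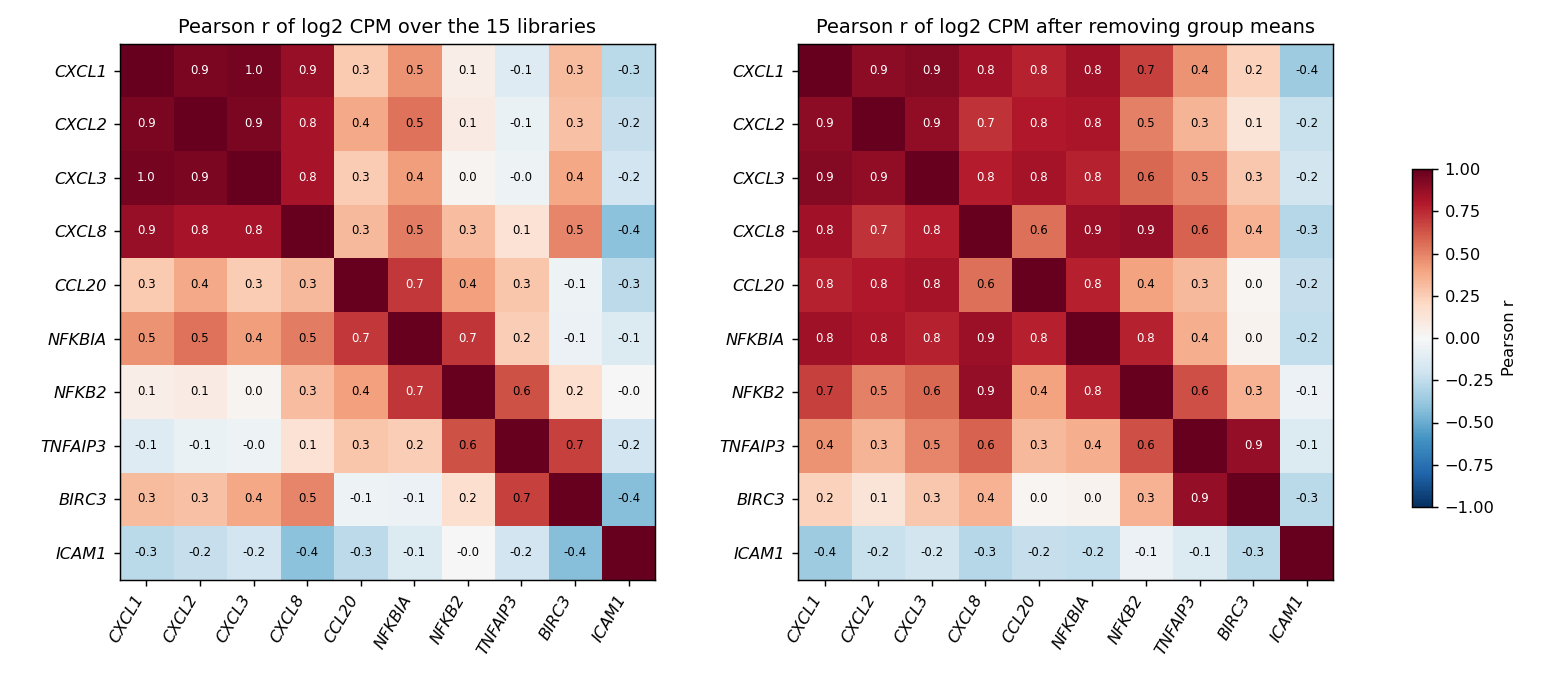
Pearson correlations of log2 CPM between the 10 genes, over the 15 libraries on the left and after removing each group's mean on the right, on a colour scale from -1 to 1. CXCL1, CXCL2, CXCL3 and CXCL8 form the darkest block on the left, and on the right their values with CCL20, NFKBIA and NFKB2 are higher than on the left.

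The 5 genes most like the chemokines, by their correlation over 15 libraries with the mean standardised log2 CPM of the 5 chemokines, were TSPAN8 (0.90), PMEPA1 (0.89), A4GALT (0.88), MICOS10 (0.88) and ZNF330 (0.88), of 12134 genes compared. TSPAN8, a tetraspanin of gastrointestinal tumours, averaged 1799 CPM in GFP, 1743 in SOX9_WT, 1549 in M228, 1239 in M303 and 1371 in M379. PMEPA1, an inhibitor of TGF-beta signalling, averaged 11.7, 13.3, 8.66, 6.58 and 8.71 CPM in the same order. The genes most like the regulators and ICAM1 were CAPN10-DT (0.90), FAM118A (0.90), KLC1 (0.88), SLC37A1 (0.88) and GPC1 (0.87). None of the 10 is a member of an NF-kB list used here.

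The rest of the pathway was examined through 8 lists, which hold 124 entries, of which 123 were matched and 102 were tested. Of the NF-kB subunits, 5 of 5 were tested (NFKB2 included) and 0 were called in any comparison between groups. RELA, the main activating subunit, differed from SOX9_WT by 0.02 ± 0.13 in M228, 0.03 ± 0.13 in M303 and 0.05 ± 0.13 in M379. NFKB1 differed by 0.06 ± 0.12, 0.14 ± 0.12 and 0.13 ± 0.12, and RELB by 0.15 ± 0.25, 0.13 ± 0.25 and 0.24 ± 0.25. No subunit had an unadjusted p under 0.05 in those 3 comparisons or in the 3 against GFP. Of the 13 inhibitors and the 26 kinases and adaptors, all tested, edgeR called 0 in the 6 comparisons of a mutant with SOX9_WT or GFP.

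Upstream, the RNA of the classical activators was scarce. TNF, IL1A and IL1B did not pass the filter, with at most 7, 18 and 9 reads in a library. Of the 4 upstream ligands tested, IL18, an epithelial cytokine of the interleukin 1 family, was called higher in M228 than in GFP (0.99 ± 0.16, edgeR adjusted p = 0.0127). Its libraries were 42.3, 52.0 and 38.0 CPM against 18.8, 23.1 and 23.4 CPM. Without M228 replicate 2 that call was lost (adjusted p = 0.0901), and with the replicate block IL18 was also called higher in M303 minus GFP (0.78 ± 0.13, adjusted p = 0.014). Of 13 upstream receptors tested, TLR4, the lipopolysaccharide receptor, was called higher against GFP in M228 (1.57 ± 0.23, adjusted p = 0.00654) and in M303 (1.26 ± 0.23, adjusted p = 0.048). TLR4 was at 15.2, 8.86 and 21.1 CPM in GFP, 45.6, 47.2 and 42.8 in M228, 31.3, 41.1 and 36.6 in M303, 30.0, 30.3 and 36.3 in M379, and 27.5, 24.4 and 23.7 in SOX9_WT. Both mutants thus lay above all GFP libraries, of which replicate 2 was the lowest. So did M379 and SOX9_WT, where TLR4 was not called against GFP. The M303 call was lost without GFP replicate 1 and without any 1 of the M303 libraries (adjusted p of 0.0594 to 0.176).

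Of 28 other NF-kB target genes tested, edgeR called 0 in all 6 comparisons of a mutant with SOX9_WT or GFP. At an unadjusted p under 0.05 there were 2 higher and 4 lower in M303 minus SOX9_WT, 1 and 5 in M228 and 2 and 3 in M379, where 6.31%, 6.65% and 4.7% of all genes had such a p. With the replicate block, CCL2 (-3.75 ± 0.83), CXCL5 (-1.97 ± 0.40), CXCL6 (-1.32 ± 0.31) and CD44 (-0.62 ± 0.12) were called lower in M303 minus SOX9_WT (edgeR adjusted p of 0.0364, 0.0237, 0.0498 and 0.0212). The first 3 are chemokines and CD44 is a hyaluronan receptor. CXCL5 and CXCL6 were scarce, with means of 0.4 and 1.32 CPM and 97 and 307 reads over the 15 libraries. Against GFP the block called CCL2 lower in M303 (-4.21 ± 0.86, adjusted p = 0.0491) and PIGR lower in M228 (-0.63 ± 0.13, 0.0352). Of 12 AP-1 and immediate early genes, which share many targets with NF-kB, 0 were called without the block, and EGR1 was called higher with it in M303 minus SOX9_WT (0.60 ± 0.11, adjusted p = 0.0111), M228 minus GFP (0.64 ± 0.11, 0.0155) and M303 minus GFP (0.68 ± 0.11, 0.014).

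CXCR4 was the 1 gene of the 6 listed chemokine receptors that passed the filter. It is the receptor of CXCL12, not of the member chemokines. It was at 8.03, 6.92 and 6.21 CPM in SOX9_WT, at 1.86, 2.26 and 2.32 in M228, at 1.70, 2.35 and 1.99 in M303, at 2.75, 2.73 and 2.44 in M379, and at 1.82, 3.92 and 3.12 in GFP. Every library of every other group lay below SOX9_WT. edgeR called it lower than SOX9_WT in M228 (-1.73 ± 0.23, adjusted p = 0.00245), M303 (-1.82 ± 0.22, adjusted p = 0.00121) and M379 (-1.42 ± 0.22, adjusted p = 0.0272). The M379 call was lost when any 1 of the M379 libraries or SOX9_WT replicate 1 or 2 was left out (adjusted p of 0.104 to 0.238). In SOX9_WT minus GFP, CXCR4 was at 1.16 ± 0.23 (adjusted p = 0.105), and CXCL1 at 0.15 ± 0.22.

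CXCL1, CXCL2, CXCL3 and CXCL8 lie in 1 cluster on chromosome 4, from 73740541 to 74099196 (GRCh38), together with other CXC chemokine genes. These neighbours were examined after the values had been seen. The 359 kb hold 18 annotated genes, of which 10 were tested. Against SOX9_WT, 9 of 10 had a negative difference in each mutant, and 8 had an unadjusted p under 0.05 in M303 (6.31% of all genes), 9 in M379 (4.7%) and 6 in M228 (6.65%). The exception was HNRNPA1P55, a pseudogene of about 1 CPM. These counts include CXCL1, CXCL2, CXCL3 and CXCL8, whose values were already given, and are no separate support for them. Of the other cluster genes, edgeR gave CXCL5, PF4 and PPBP an unadjusted p under 0.05 against SOX9_WT in each mutant. It did so for CXCL6 in M303 and M379 and for PF4V1 in M379 only. PF4, or platelet factor 4, was at 113, 108 and 121 CPM in SOX9_WT and 77.8, 57.8 and 60.5 CPM in M303, a difference of -0.80 ± 0.16 that edgeR called (adjusted p = 0.0444). PPBP, which encodes the CXCL7 precursor, was at 54.2, 52.3 and 48.1 CPM in SOX9_WT and 24.7, 15.1 and 16.1 CPM in M379, and was called there (-1.47 ± 0.25, adjusted p = 0.0346). In M303 minus SOX9_WT, PPBP was at -1.14 ± 0.24 (adjusted p = 0.0551), and the replicate block called it (-1.18, adjusted p = 0.00152). PF4 lost its call in M303 when any library of the 2 groups but M303 replicate 1 was left out (adjusted p of 0.157 to 0.22), and PPBP in M379 when any but M379 replicate 1 was (0.09 to 0.313). CXCL5, at 0.76 to 1.07 CPM in SOX9_WT, had the largest differences, -1.80 ± 0.46 in M228, -1.95 ± 0.41 in M303 and -1.99 ± 0.46 in M379, on 97 reads in all. Over the 10 genes, members included, the median differences were -0.61 (M228), -0.93 (M303) and -0.90 (M379), and against GFP -0.43, -0.66 and -0.65. The other 6 members lie on other chromosomes, and their neighbours were not examined. Whether the cluster as a whole stands apart was not tested.

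**Figure D5:**
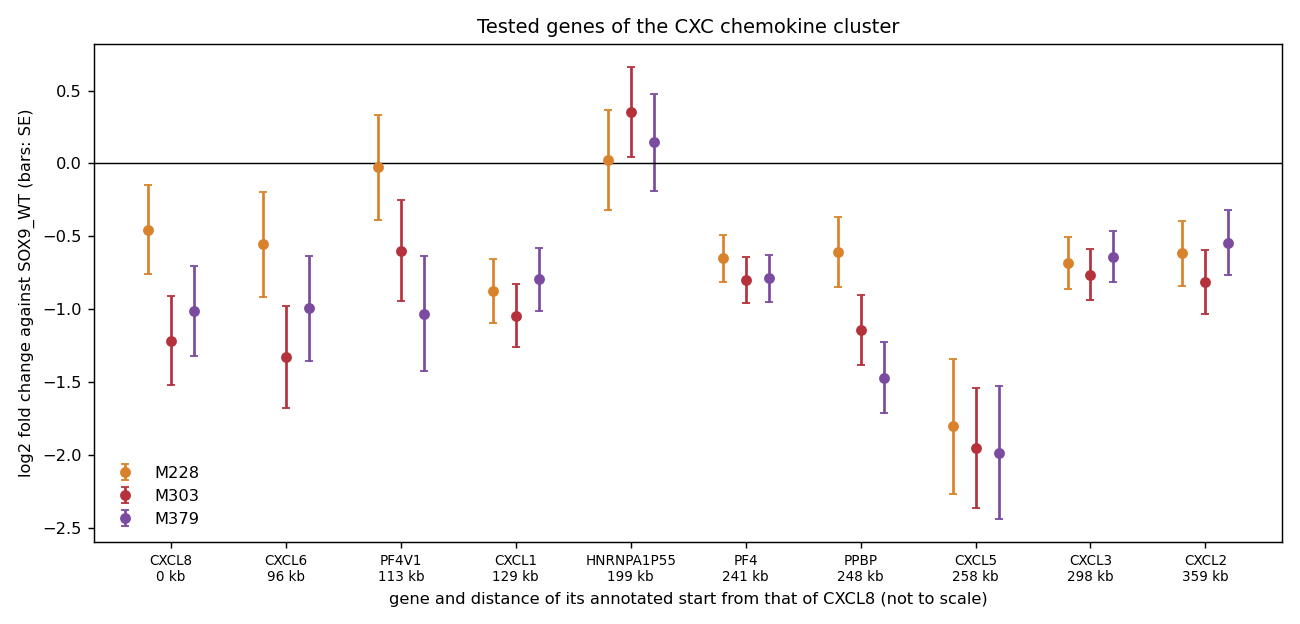
Log2 fold changes (points) with standard errors (bars) against SOX9_WT of the 10 tested genes of the CXC cluster, in chromosomal order, with the distance of each annotated start from that of CXCL8 under its name. Apart from HNRNPA1P55, and PF4V1 in M228 at -0.03, the points lie at -0.45 or lower in all 3 mutants.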

How the data were processed

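Alignment used STAR 2.7.0a and hg38 (per the submitters' processing notes). The deposited values are raw counts per gene. Per the file headers, the authors counted reads with featureCounts 2.0.1 against Ensembl 101 and set no option for strand, pairs or multi-mapping reads. A second, normalized table was not used: 3 of its columns match no sample label. From the counts, CPM were computed with TMM scaling. Genes passing filterByExpr were tested with edgeR 4.0.16 (R 4.3.3): 1 quasi-likelihood model of group means over 15 libraries, 10 contrasts between groups and 2 between replicate numbers (group plus replicate), two-sided, adjusted by the Benjamini-Hochberg method over all genes tested. Errors of log2 differences are standard errors. DESeq2 1.42.0 was an alternative, and others are given in the closing section. The steps were tested on simulated data.

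Replicate numbers were taken as pairs where, for all 3 numbers, deviations from the group means correlated above 0.1. This held for the mutants against GFP (lowest 0.169), between mutants, and for M303 against SOX9_WT at 0.101, which became 0.0984 with another prior count. It did not hold for M228 and M379 against SOX9_WT or SOX9_WT against GFP.

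The members and lists were chosen with earlier results of these data known. All 10 members are named, then up to 2 called genes of each list and contrast, a few set regulators and the 5 most alike genes. The CXC cluster genes and CD44 were named after their values were seen. Promoters are from RefSeq (GRCh38.p14), and shared stretches were counted in GENCODE transcripts with Python 3.11.15.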

Additional observations from a re-analysis of the deposited data

How the results depend on the processing

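The differences of CXCL1, CXCL2, CXCL3 and CXCL8 between the mutants and SOX9_WT or GFP kept their sign in the 13 or 14 alternatives run for each, but whether they were called depended on the setting, and the settings that called more members mostly called more of all genes. For M303 minus SOX9_WT, 0 of 10 members and 0.384% of all genes were called in the model of all libraries. It was 4 members with DESeq2 (1.05% of all genes), without a filter on low counts (0.731%), with only the 2 groups in the fit (0.757%), with the replicate block (1.6%), and in the fit without the GFP libraries (1.44%), which was added after the data were seen. For M228 minus SOX9_WT the counts in the same order were 2, 2, 3, 2 and 2 (1.4%, 0.857%, 1.85%, 1.97% and 1.78%), and for M379 minus SOX9_WT 0, 2, 3, 3 and 2 (0.439%, 0.367%, 1.03%, 0.656% and 0.628%). These 2 contrasts did not meet the pairing criterion, so their block values are given only here. For M303 minus GFP, 1 member was called by DESeq2 (0.551%), 2 without the filter (0.568%) and 2 with the replicate block (0.526%). For M228 minus GFP it was 1 without the filter (0.755%) and 1 with the block (1.12%), and for M379 minus GFP 1 without the filter (0.198%). The block gave no call for SOX9_WT minus GFP or between mutants. Leaving out each library in turn gave 0 to 0 calls in all 10 contrasts between groups, and so did RLE size factors, robust dispersion and replicates 2 and 3 alone. For replicate 1 minus replicates 2 and 3, leaving out a library gave 2 to 6 calls (6.68% to 34.5% of all genes), and leaving out GFP gave 4 (32.2%). For replicate 2 minus replicate 3, leaving out a library gave 0 to 2 (0% to 0.667%), DESeq2 2 (0.749%), no filter 2 (1.61%), leaving out GFP 4 (0.515%) and leaving out SOX9_WT 1 (0.0125%). CXCL8 and NFKB2 stayed called lower in replicate 1 in 24 of 24 alternatives. Of the called genes outside the members, CXCR4, TLR4, IL18, PF4 and PPBP, run after the data were seen, 0 reversed, and all lost their calls with replicates 2 and 3 alone. The cause of these changes was not tested. Depth limits ICAM1 and CCL20 most, with as few as 11 and 27 reads in GFP replicate 1.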
